A study of Mus musculus with 6 samples.

Results

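The genes described here are 10 genes that carry lipids between and out of cells: the apolipoproteins Apoe, Clu and Apod, the cholesterol exporters Abca1 and Abcg1, the enzymes Lcat and Lpl, and the lipoprotein receptors Lrp1, Lrp8 and Vldlr. They were taken as every probe set that the platform annotation pairs with exactly 1 gene, that gene being on the list. All 10 were found, on 26 probe sets, among 18193 genes on 34945 such probe sets. The study measured RNA of stem cells from the adult mouse ventricular-subventricular zone (V-SVZ), the neurogenic layer beside the lateral ventricles, on 6 arrays. Quiescent neural stem cells (3 arrays) were sorted as GFAP::GFP+CD133+CD24- cells, and activated neural stem cells (3 arrays) by the same markers plus the EGF receptor (GFAP::GFP+CD133+EGFR+CD24-). The reporter transgene, GFP under control of GFAP sequences that are also active in astrocytes, is thus shared by both groups, and both lack CD24 at the surface. The labels call the arrays biological replicates without giving the strain, the exact age, the treatment or the number of animals behind each, so p-values measure the spread between these samples.

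In the brain, cholesterol and phospholipids travel in small particles that astrocytes release. ABCA1 and ABCG1 move lipid out of the cell onto apolipoprotein E, LCAT esterifies the cholesterol so that the particle matures, and receptors of the LDL receptor family on other cells take the particle up. VLDLR and LRP8 (also called ApoER2) additionally bind reelin and signal through the adaptor DAB1, and lipoprotein lipase frees fatty acids from triglyceride-rich particles.

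Values are log2 MAS5 signals, and every difference is activated minus quiescent on that scale, ± SE from a limma fit over 11575 genes, with p-values adjusted by Benjamini-Hochberg and 3 arrays in each group. A gene was called at an adjusted p under 0.05. Its brightest probe set stood for it, and it was tested when the mean over the 6 arrays reached a log2 signal of 6.02, the 40th percentile of all probe sets. All 10 genes passed that filter, but Apod passed only through its quiescent arrays and Lpl only through its activated arrays, so their separation is partly set by the filter. In this fit 34.9% of all tested genes were called, 17.3% higher and 17.6% lower in activated cells, and the 3 arrays of a group lay apart from the other 3 for 50.7% of genes. A single-gene exact permutation test of 3 against 3 arrays cannot go below p = 0.1. In sorted bulk cells, fewer cells of a type and less RNA per cell cannot be told apart.

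The label check and technical measures were as follows. Egfr, whose protein separated the sorts, differed by 2.11 ± 0.24, and Gfap, the mouse gene that the reporter is named after, by -4.18 ± 0.58. Cd24a, which encodes the surface protein that both sorts were gated to lack, read 7.99, 9.31 and 10.48 on the quiescent and 13.36, 13.52 and 13.29 on the activated arrays, so its RNA was 4.13 ± 0.50 higher in activated cells (limma adjusted p = 0.000223) despite that label. Prom1, which encodes CD133, the marker required in both sorts, was lower in activated cells (-1.22 ± 0.32, limma adjusted p = 0.0133). The hybridisation controls, spiked in at fixed amounts, had a mean of 14.33 ± 0.53 (SD, n = 3) on the quiescent and 13.69 ± 0.05 on the activated arrays (2-sided exact permutation p = 0.1), with quiescent array 1 at 14.94. Array background, the 95th percentile of 27 bacterial control probe sets, lay between 5.45 and 6.10 on quiescent and between 4.52 and 4.67 on activated arrays. The Gapdh 3 prime minus 5 prime signal, a sign of RNA quality, was 2.59, 2.01 and 1.54 on the quiescent and 1.19, 1.51 and 1.41 on the activated arrays, with no overlap (2-sided exact permutation p = 0.1). That of actin was -0.05 ± 0.16 and 0.07 ± 0.16 (SD, n = 3) and overlapped. The part of these measures in the results was not tested. Scaling arrays to the hybridisation controls moved the median difference of all genes from 0.01 to 0.66.

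Of the 10 genes, 8 were lower in activated cells (Apoe, Clu, Apod, Abca1, Abcg1, Lcat, Lrp1 and Vldlr), 1 was higher (Lrp8) and Lpl was not called. Of all tested genes 17.6% were called lower, 17.3% higher and 34.9% in either direction. The median difference over the 10 was -2.35, against 0.01 over all tested genes. The arrays of the groups did not overlap for any of the 10, against 50.7% of all genes (8 lower, where 25.5% of all genes were, and 2 higher, where 25.1% were). Apod and Lpl passed the filter only through the group where they were brighter, and the 10 genes were chosen with earlier results of these data known. The counts over the 10 thus describe these genes and support nothing further. No direction was reversed in any of the 188 alternative values of these genes. Calls changed in 12 of those alternatives, which concerned Lrp8, Lpl and Abca1.

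**Figure D1:**
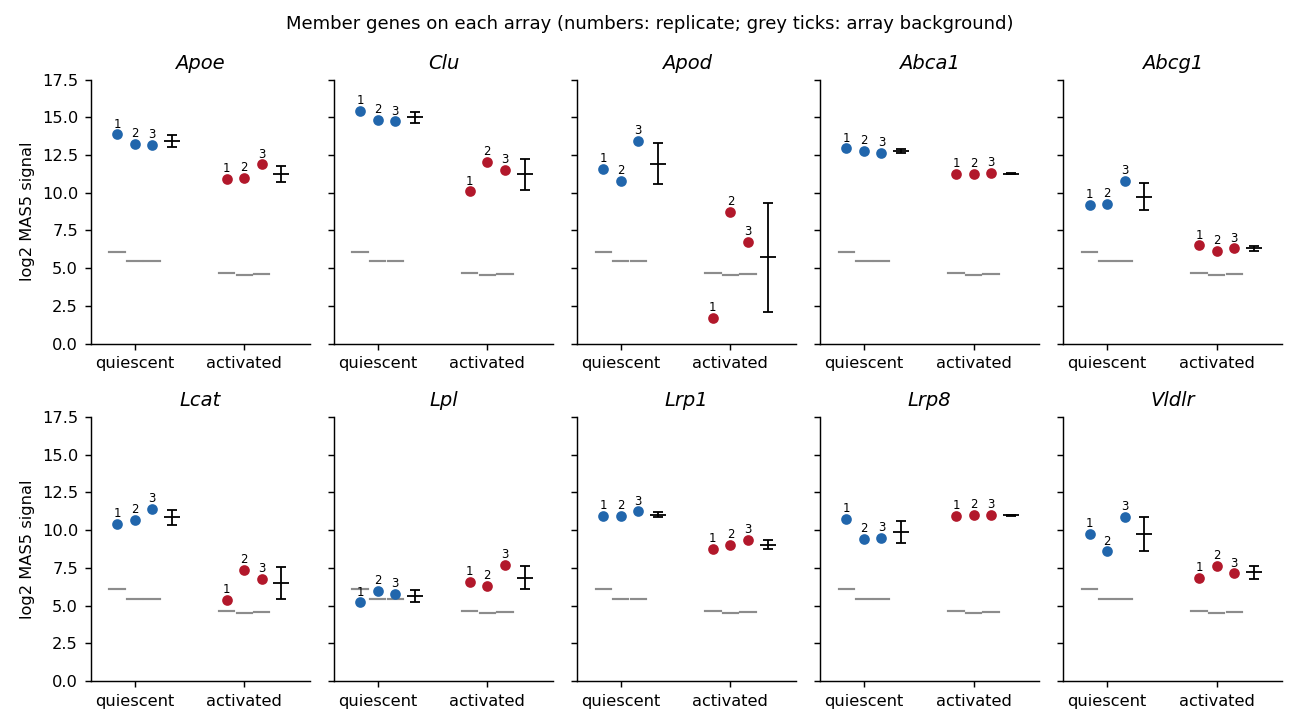
Log2 MAS5 signal (vertical axis) of the 10 genes on each quiescent (blue) and activated (red) array, with the replicate number above each point, the mean and SD of the 3 arrays to the right, and the background of each array as a grey tick. The quiescent points lie above the activated points for 8 genes and below them for Lpl and Lrp8, and activated array 1 lies below background for Apod, at 1.71.

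The apolipoproteins were all lower in activated cells. Apoe, which encodes the main lipoprotein component made in the brain, read 13.87, 13.23 and 13.16 on quiescent arrays 1 to 3 and 10.93, 10.99 and 11.88 on activated arrays 1 to 3. The lowest quiescent array was thus above the highest activated array. Apoe fell by 2.15 ± 0.32 (limma adjusted p = 0.000676), a 4.44-fold difference, and leaving out each array in turn gave differences between -2.46 and -1.93.

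Clu encodes clusterin, also called apolipoprotein J, a secreted chaperone that is found on brain lipoproteins. Its brightest probe set read 15.44, 14.83 and 14.74 on the quiescent arrays and 10.09, 12.06 and 11.54 on the activated arrays. The groups were far apart, and activated array 1 lay below the other activated arrays. Clu fell by 3.77 ± 0.44 (limma adjusted p = 0.000183), or by 3.20 without activated array 1. All 4 of its probe sets were called lower, from -4.46 to -3.23.

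Apod encodes apolipoprotein D, a lipocalin that carries small lipids and is abundant in oligodendrocytes. It read 11.57, 10.79 and 13.45 on the quiescent arrays and 1.71, 8.71 and 6.74 on the activated arrays. Activated array 1 was below its background of 4.67, and the activated arrays spread far more (SD 3.61) than the quiescent arrays (SD 1.37). Apod fell by 6.22 ± 1.42 (limma adjusted p = 0.00707), and with array 1 held at background it was at least 37.6-fold lower. Without activated array 1 the difference was -4.21 and without activated array 2 it was -7.71. A dimmer Apod probe set stayed below background on all quiescent arrays and was not tested.

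Markers of other cells moved with Apod. The summed linear signal of 7 mature oligodendrocyte markers was 44277, 19456 and 72745 on quiescent arrays 1 to 3 and 2551, 5910 and 2220 on the activated arrays. Apod and this sum were both highest on array 3 and lowest on array 2 among quiescent arrays, and both highest on array 2 among activated arrays. The lowest activated array differed, being array 1 for Apod and array 3 for the sum. All 7 markers were called lower, and their part in the Apod result was not tested.

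The exporters were both lower in activated cells. Abca1, which loads cholesterol and phospholipid onto lipid-poor apolipoproteins, read 12.94, 12.78 and 12.67 on the quiescent arrays and 11.23, 11.28 and 11.31 on the activated arrays. It had the smallest spread of the genes that fell, with SDs of 0.14 and 0.04. Abca1 fell by 1.52 ± 0.23 (limma adjusted p = 0.000715), and its 3 probe sets differed by -1.78 to -1.52. Scaled to the hybridisation controls it differed by -0.88, with all genes at a median of 0.66, and was not called (limma adjusted p = 0.061).

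Abcg1, which passes cholesterol on to particles that already carry lipid, read 9.20, 9.26 and 10.79 on the quiescent arrays and 6.51, 6.17 and 6.31 on the activated arrays. Quiescent array 3 was the highest, and the activated arrays lay close together. Abcg1 fell by 3.42 ± 0.53 (limma adjusted p = 0.000792), a 10.7-fold difference. Its dimmer probe set was below the filter, with all 3 activated arrays and 1 quiescent array at background, and was not tested.

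Lcat encodes the plasma and brain enzyme that esterifies cholesterol on lipoproteins and is activated by apolipoproteins. It read 10.42, 10.67 and 11.43 on the quiescent arrays and 5.35, 7.39 and 6.79 on the activated arrays. Every activated array was lower by more than the range of the quiescent arrays, and activated array 1 was the lowest. Lcat fell by 4.33 ± 0.55 (limma adjusted p = 0.00028), which is 20.1-fold, and by 3.75 without activated array 1.

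Promoter windows of 300 bases around a transcript start are shown for a gene pair that fell together, the acceptor Apoe and its donor Abca1. RefSeq windows of build GRCm38.p6 were matched for 7 of the 10 genes (Apoe, Apod, Abca1, Lcat, Lrp1, Lrp8 and Vldlr), and the most upstream window was taken where a gene had several. Capitals mark GC boxes (GGGCGG), the E-box (CACGTG), the nuclear receptor element AGGTCA, its direct repeat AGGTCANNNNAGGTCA to which LXR and RXR bind, and TATAAA, each searched on both strands. The Apoe window is chr7:19699139-19699438 on the minus strand, and the Abca1 window is chr4:53159846-53160145 on the minus strand.
Apoe: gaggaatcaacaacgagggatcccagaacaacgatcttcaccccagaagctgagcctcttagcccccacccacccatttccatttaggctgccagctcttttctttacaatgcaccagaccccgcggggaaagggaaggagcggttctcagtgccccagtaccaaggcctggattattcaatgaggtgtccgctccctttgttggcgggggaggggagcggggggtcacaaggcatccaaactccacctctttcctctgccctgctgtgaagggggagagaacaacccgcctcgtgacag
Abca1: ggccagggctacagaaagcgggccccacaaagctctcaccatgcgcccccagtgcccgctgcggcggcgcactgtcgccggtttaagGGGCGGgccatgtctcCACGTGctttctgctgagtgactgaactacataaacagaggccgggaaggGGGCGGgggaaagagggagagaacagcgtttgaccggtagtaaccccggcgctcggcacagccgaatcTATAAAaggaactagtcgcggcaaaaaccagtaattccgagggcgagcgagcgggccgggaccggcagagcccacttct
The Abca1 window held 2 GC boxes, 1 E-box and 1 TATAAA, and the Apoe window held none of the motifs. Over all 32851 windows 35.7% held a GC box, 7.15% the E-box, 16.3% AGGTCA, 0.0152% the direct repeat and 13.6% TATAAA. Of the 7 windows of these genes, Abca1 and Lrp1 held a GC box, and none held an exact copy of AGGTCA or its direct repeat. Only exact letters were searched, and the exact repeat is rare in all windows. Its absence thus cannot show that a window lacks a binding site with other letters. The letters missing from a window also say nothing of the factor itself.

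The receptors split. Lrp1, a large endocytic receptor for Apoe particles and many other ligands, read 10.92, 10.94 and 11.24 on the quiescent arrays and 8.74, 9.03 and 9.35 on the activated arrays. Both groups were tight, with SDs of 0.18 and 0.31. Lrp1 fell by 1.99 ± 0.31 (limma adjusted p = 0.000826). A further Lrp1 probe set read 11.39, 11.77 and 9.67 against 7.52, 6.08 and 6.82, and differed by -4.13 ± 0.59 (limma adjusted p = 0.000558 over 22607 probe sets). The direction is shared, but the sizes of the 2 probe sets differ.

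Vldlr encodes the very low density lipoprotein receptor. Its brightest probe set read 9.74, 8.59 and 10.90 on the quiescent arrays and 6.82, 7.64 and 7.13 on the activated arrays. The lowest quiescent array, array 2, was 8.59 and so above the highest activated array. Vldlr fell by 2.55 ± 0.58 (limma adjusted p = 0.0068). The other 3 tested probe sets differed by -4.21, -3.52 and -3.50, and activated array 3 read only 1.83 and 2.26 on 2 of them, below its background of 4.60. On the probe set at -3.50 activated array 2 read 4.05, below its background of 4.52. With these arrays held at background the 3 probe sets were at least 10.8-fold, 6.04-fold and 10.2-fold lower, in the same order. On the Vldlr probe set at -3.52 the call was lost when any 1 quiescent array was left out (limma adjusted p = 0.0557 to 0.0597) and under hybridisation control scaling (0.0525), and the difference was -2.25 without activated array 3.

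Lrp8, the closest relative of Vldlr, was the gene called higher. Its brightest probe set read 10.74, 9.42 and 9.47 on the quiescent arrays and 10.95, 10.99 and 11.03 on the activated arrays. Quiescent array 1 lay near the activated arrays, while the 3 activated arrays differed by less than 0.1 (SD 0.04). Lrp8 was 1.11 ± 0.38 higher (limma adjusted p = 0.0419), a 2.16-fold difference. The call was lost in 9 of 19 alternatives, among them leaving out quiescent array 2 (limma adjusted p = 0.133), quiescent array 3 (0.08) or activated array 1 (0.0972), 2 (0.108) or 3 (0.112). Its 2 other probe sets differed by 0.56 ± 0.36 and 0.48 ± 0.35 and were not called, with overlapping arrays.

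The promoter windows of the receptor pair that moved in opposite directions are shown for comparison, with the same marking. The Vldlr window is chr19:27216234-27216533 on the plus strand and the Lrp8 window is chr4:107802635-107802934 on the plus strand.
Vldlr: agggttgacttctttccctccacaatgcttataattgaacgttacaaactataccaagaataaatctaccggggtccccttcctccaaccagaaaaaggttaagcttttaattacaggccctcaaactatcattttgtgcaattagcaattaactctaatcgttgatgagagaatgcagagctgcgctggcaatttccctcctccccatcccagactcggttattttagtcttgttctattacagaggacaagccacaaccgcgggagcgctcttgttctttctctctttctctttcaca
Lrp8: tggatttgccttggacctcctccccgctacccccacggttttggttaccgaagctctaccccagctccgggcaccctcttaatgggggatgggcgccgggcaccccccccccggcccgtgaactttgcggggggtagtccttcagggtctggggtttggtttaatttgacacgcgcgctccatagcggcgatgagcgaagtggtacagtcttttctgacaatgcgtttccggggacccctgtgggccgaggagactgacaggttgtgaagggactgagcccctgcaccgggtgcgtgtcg
Neither window held any of the motifs searched. They differ in base composition, with 43% G and C in Vldlr and 62.7% in Lrp8, around a median of 52.7% over all windows. The other windows ranged from 37.3% in Apod to 67.7% in Lrp1, so genes that fell lay on both sides of Lrp8.

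Lpl encodes lipoprotein lipase. It read 5.21, 5.95 and 5.75 on the quiescent arrays and 6.55, 6.28 and 7.71 on the activated arrays. Quiescent array 1 was below its background of 6.10 and the others were just above theirs, whereas all activated arrays were above background. The difference of 1.21 ± 0.65 was not called (limma adjusted p = 0.169). It was 0.78 without activated array 3. It was called after quantile normalization (1.94, adjusted p = 0.0406) and when its 2 probe sets were averaged (1.66, adjusted p = 0.0461). The dimmer probe set read 4.02, 5.55 and 4.92 against 6.32, 7.86 and 6.66.

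Across all 26 probe sets the direction was the same within each gene. Of the 21 that passed the filter, 5 did so only through the group where they were brighter (1 each of Apod and Lpl and 3 of Vldlr), so the counts over the 21 describe them and support nothing further. Of the 21, 18 were called, against 31.9% of all tested probe sets. Of these 17 were lower and 1 higher, where 16.3% of all tested probe sets were lower and 15.6% higher. The arrays of the groups were apart for 19 of the 21, against 48.1% of all tested probe sets (17 lower against 24.5%, and 2 higher against 23.6%). The median difference of the 21 was -3.23, and of all tested probe sets -0.02. The 5 below the filter (1 each of Abcg1, Apod and Lpl, and 2 of Vldlr) pointed the same way as the tested probe set of their gene. Probe sets of a gene share its RNA and are not replicates.

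**Figure D2:**
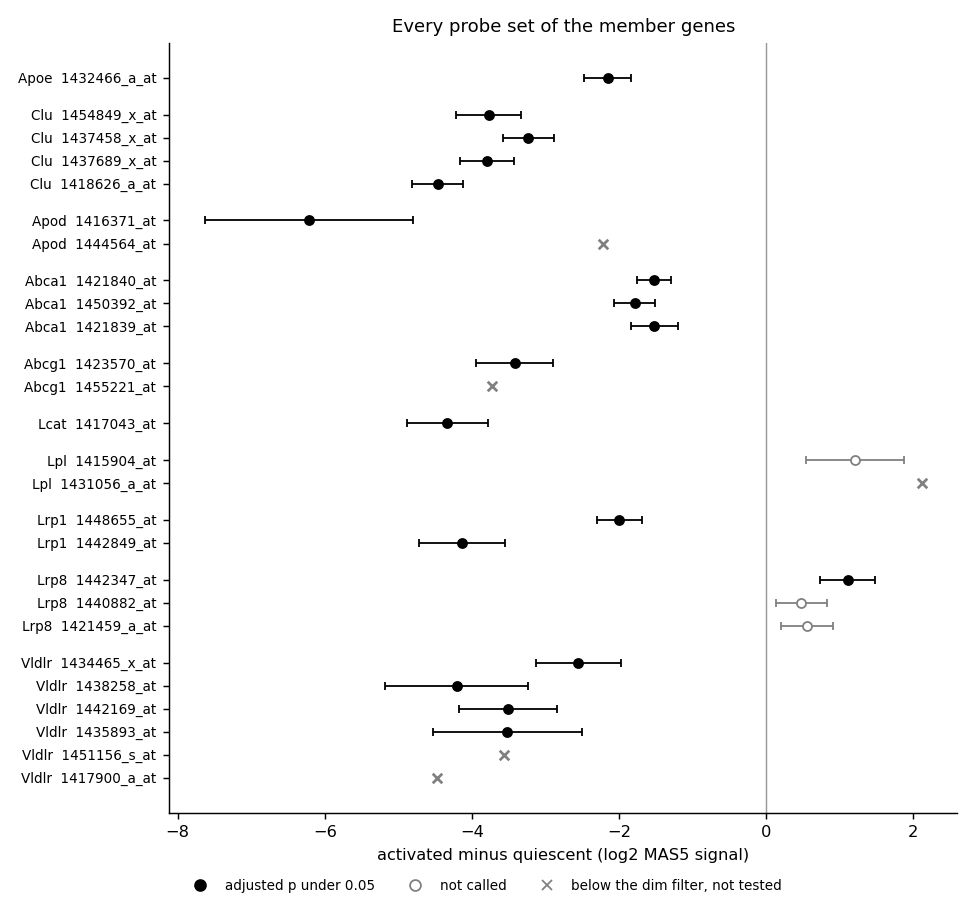
Difference between activated and quiescent arrays (horizontal axis, log2 MAS5 signal) for each of the 26 probe sets, with SE bars for the 21 tested. Filled points passed an adjusted p of 0.05, open points did not, and crosses were below the filter. Probe sets of Lpl and Lrp8 lie to the right of 0 and those of the other 8 genes to the left.

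The order of the arrays within a group was in part shared among the genes that fell. Of these 8 genes, 7 were lowest on activated array 1 among the activated arrays, Abcg1 being the exception. For Abca1 (11.23, 11.28 and 11.31) and Apoe (10.93 and 10.99 on arrays 1 and 2) that order rests on small steps. The share of all genes with the same order was not computed, so it is not shown to be particular to these genes. Activated array 2 held the highest value of Apod, Clu, Lcat and Vldlr. Among quiescent arrays, array 3 held the highest value of Abcg1, Apod, Lcat, Lrp1 and Vldlr, and array 1 that of Abca1, Apoe and Clu.

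Marker lists of the cell types that the sort could hold were summed on each array. The 10 astrocyte and quiescent stem cell markers, such as Aqp4 and Slc1a3, summed to 149895 to 230258 on quiescent and 30990 to 39828 on activated arrays, and all 10 were lower. Their sum was highest on quiescent array 1, as were Apoe, Clu and Abca1, and lowest on activated array 1. Choroid plexus markers, with Ttr at 13.77 on quiescent array 3 and 13.62 on activated array 2, summed to 2123 to 14589 on quiescent and 310 to 12926 on activated arrays. Activated array 2 also held the highest activated value of Apod, Clu, Lcat and Vldlr, so leaving it out could only enlarge their differences. Without it Apod differed by -7.71, Clu by -4.19, Lcat by -4.77 and Vldlr by -2.77, all called. Quiescent array 3 held the highest quiescent value of Apod, Lcat and Vldlr and the lowest of Clu. Leaving it out could thus only enlarge the Clu difference and lessen the others. Without it Apod differed by -5.46, Clu by -3.90, Lcat by -4.04 and Vldlr by -1.97, all called. The part of choroid plexus cells in these results was not tested.

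Microglia also make Apoe and Lpl. Their 10 markers summed to 525 to 1039 on quiescent and 202 to 246 on activated arrays, and 3 of the 10 (Aif1, C1qa and C1qc) were at or below background on all 6 arrays. On quiescent arrays 1 to 3, 6, 3 and 6 of the 10 were at background, and on activated arrays 5 to 6. P2ry12 (6.35, 8.01 and 7.36) and Csf1r (7.11, 7.44 and 6.46) were above background on every quiescent array. Ependymal markers summed to 4373 to 6976 against 504 to 634, with 4 of 4 tested genes lower. Endothelial markers summed to 1124 to 3735 against 105 to 193 (3 of 3 tested lower), and pericyte and mural markers to 4746 to 8926 against 480 to 650 (3 of 5 lower). Blood markers summed to 145 to 345 against 89 to 140, close to background. Of the 4 blood genes, 3, 3 and 2 were at background on quiescent arrays 1 to 3, and 2, 2 and 1 on the activated arrays. The 1 that was tested was not called. The part of these cells in the results was not tested. Activated stem cell and progenitor markers went the other way (5087 to 10717 against 50048 to 52805, 7 of 7 higher). The sum of neuroblast and neuron markers did too (7522 to 9996 against 14526 to 19073), but only 2 of 7 were called higher. Map2, Tubb3, Snap25, Stmn2 and Gad1 overlapped between the groups. Syt1 was lower on every activated array (6.26, 5.65 and 7.01 against 3.20, 3.57 and 4.66), near or below background there.

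**Figure D3:**
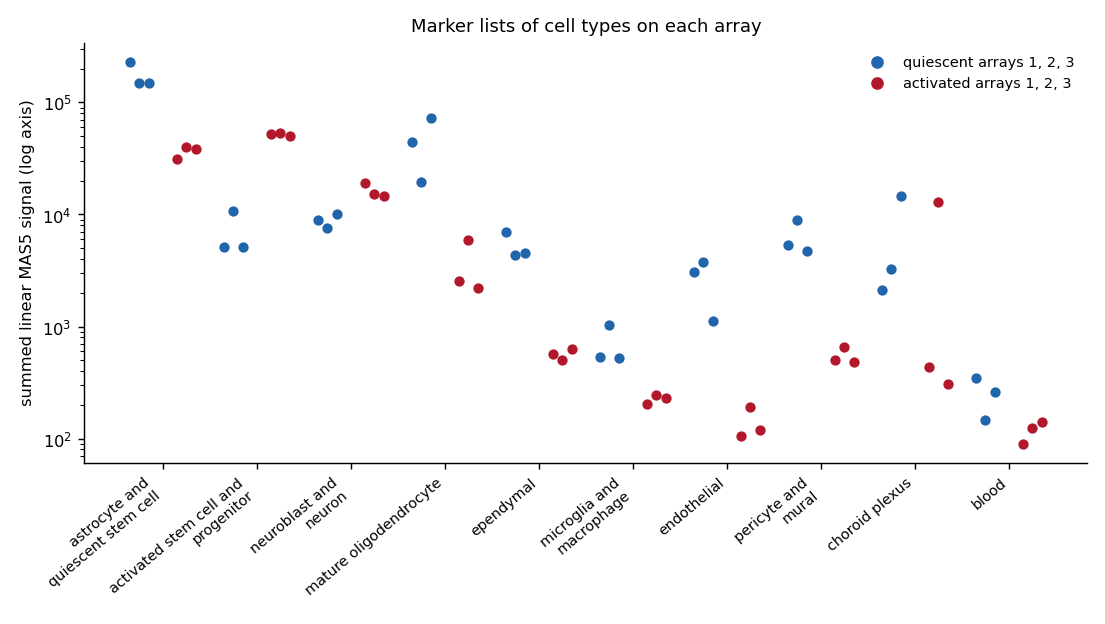
Summed linear MAS5 signal of each marker list (vertical log axis) on the 3 quiescent (blue) and 3 activated (red) arrays. Astrocyte, oligodendrocyte, ependymal, microglial, endothelial, mural and blood sums are higher on every quiescent array, progenitor and neuronal sums on every activated array, and the choroid plexus sums overlap. The blood sums lie close to background.

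Further genes of lipid transport were read from the same fit in 7 lists. Of 124 genes 112 had a probe set of a single gene and 81 were tested. Of the 81, 28 were lower (34.6%, against 17.6% of all genes) and 6 higher (where 17.3% of all genes were). Of the genes called lower, Apoc1, Apoa1, Cav1 and Ldlrad4 passed the filter only through their quiescent arrays. Of those called higher, Osbpl10 and Slc27a3 passed only through their activated arrays. Their separation is thus partly set by the filter, and the counts describe the lists and support nothing further. Their median difference was -0.69. With arrays scaled to the hybridisation controls, 15 were lower and 10 higher. Leaving out quiescent array 2, activated array 1 or activated array 3 gave 3 higher genes.

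Among other lipoprotein particle proteins, 3 of 7 tested genes were lower (42.9%, against 17.6% of all genes), and the median was -1.34. Pltp, which transfers phospholipid between particles, read 13.02, 13.35 and 13.21 against 11.11, 10.88 and 10.85 and fell by 2.25 ± 0.24 (limma adjusted p = 0.000106). The remaining 2, named after their values were seen, were Apoc1 (-1.92 ± 0.62) and Apoa1 (-1.81 ± 0.63), the latter not called with the replicate number as a block (limma adjusted p = 0.0539). Only 1 of the 7 was called without quiescent array 3, activated array 2 or activated array 3. Lrpap1, a chaperone of LDL receptor family proteins, differed by -0.82 ± 0.31 and was not called, except without quiescent array 2 (-1.06, limma adjusted p = 0.0379).

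Of 11 further ABC transporters 6 were lower (54.5%, against 17.6% of all genes) and 5 were not called. Abca2, a lipid transporter of endosomes and lysosomes, fell by 2.68 ± 0.49 (limma adjusted p = 0.00206). The peroxisomal transporter Abcd3 fell by 1.63 ± 0.31, a call lost when its probe sets were averaged (-1.21, limma adjusted p = 0.194). The lower count was 3 without quiescent array 2, activated array 1 or activated array 3. Abca3 was not called, at -0.31 ± 0.31, though averaging its probe sets gave a call (-1.34, limma adjusted p = 0.0424).

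In the LDL receptor family and its adaptors 7 of 15 tested genes were lower (46.7%, against 17.6% of all genes) and 1 was higher (where 17.3% of all genes were). Sorl1, a sorting receptor that also binds Apoe, read 12.32, 12.32 and 11.36 against 6.74, 7.38 and 7.47 and fell by 4.81 ± 0.39 (limma adjusted p = 3.81e-05). Ldlrad4 fell by 3.56 ± 0.85 and, with 1 activated array at background, was at least 9.03-fold lower. Dab1, the adaptor through which reelin receptors signal, read 12.22, 12.35 and 11.67 against 8.60, 8.67 and 9.16 and fell by 3.27 ± 0.31 (limma adjusted p = 6.67e-05). It was named after its value was seen, for its link to Vldlr and Lrp8. Lrp11 was 1.79 ± 0.39 higher (limma adjusted p = 0.00599). Snx17, a sorting nexin that returns LDL receptor family proteins to the surface, differed by 0.61 ± 0.28 and was not called, except without quiescent array 3 (0.77, limma adjusted p = 0.0338) and under hybridisation control scaling (1.25). Without quiescent array 3 this list held 2 higher genes.

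Of 8 tested scavenger receptor and fatty acid uptake genes 2 were lower (25%, against 17.6% of all genes) and 2 higher (against 17.3%), and the median was -0.42. Slc27a1, a fatty acid transport protein, fell by 2.29 ± 0.26 and the lysosomal membrane protein Scarb2 by 1.46 ± 0.23, the latter not called under hybridisation control scaling (limma adjusted p = 0.0839). The higher pair, named after its values were seen, was Slc27a3 (at least 7.20-fold higher, with 1 quiescent array at background) and the HDL receptor Scarb1 (1.80 ± 0.59, limma adjusted p = 0.0364). Only 1 was higher without quiescent array 1 or 2, or activated array 1 or 3. The fatty acid binding protein Fabp5 differed by -0.17 ± 0.21 and was not called.

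Of 8 tested lipases, their regulators and esterification genes 2 were lower and 6 were not called. The 25% called lies below the 34.9% of all genes called in either direction. As all calls were lower, it lies above the 17.6% of all genes called lower. The median was -0.86. Mgll, which breaks down monoacylglycerols, read 12.26, 11.33 and 11.53 against 6.44, 6.69 and 5.76 and fell by 5.41 ± 0.42 (limma adjusted p = 3.41e-05). Lipa, the lysosomal lipase that frees cholesterol from internalised lipoproteins, fell by 2.07 ± 0.46 (limma adjusted p = 0.00605), which was not called under hybridisation control scaling (0.0566). Pnpla2, the main triglyceride lipase of lipid droplets, differed by -0.60 ± 0.36 and was not called.

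Intracellular sterol trafficking genes were called lower in 5 and higher in 2 of 19 cases (36.8% called, against 34.9% of all genes), with a median of -0.05. Lower calls made up 26.3% of the 19, against 17.6% of all genes, of which 17.3% were higher. Npc1, which exports cholesterol from lysosomes, read 11.81, 11.61 and 11.48 against 8.74, 9.21 and 8.57 and fell by 2.79 ± 0.30 (limma adjusted p = 0.000121). Its partner Npc2 differed by 0.04 ± 0.27 and was not called, though the mean of its probe sets gave -0.97. The oxysterol-binding relative Osbpl1a fell by 2.19 ± 0.43. Osbpl2 was 1.06 ± 0.34 higher (limma adjusted p = 0.0328), a call lost with the replicate number as a block (adjusted p = 0.0533) and without any array but quiescent array 3. The other higher gene, named after its value was seen, was Osbpl10 (at least 3.42-fold higher, limma adjusted p = 0.04, with 1 quiescent array at background), and neither was called without quiescent array 2 or any 1 of the activated arrays. Without quiescent array 1 only 1 was.

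Among genes of sterol sensing and oxysterols 3 of 13 were lower and 1 was higher (30.8% called, against 34.9% of all genes). Lower calls made up 23.1% of the 13, against 17.6% of all genes, of which 17.3% were higher. Cyp7b1, an oxysterol hydroxylase, fell by 5.08 ± 0.42 (limma adjusted p = 3.92e-05). Cyp46a1, which turns cholesterol into 24-hydroxycholesterol, read 10.04, 9.90 and 10.84 against 7.78, 7.37 and 7.65 and fell by 2.66 ± 0.40 (limma adjusted p = 0.000675). Cyp39a1, which hydroxylates that product further, was at least 6.31-fold higher (limma adjusted p = 0.00258), with 1 quiescent array at background. Without quiescent array 3, or under hybridisation control scaling, 2 genes of this list were higher. The sterol sensor Insig1 differed by -0.33 ± 0.24 and was not called. Nr1h3, an LXR gene and a regulator of Abca1, Abcg1 and Apoe, differed by -0.82 ± 0.68 (limma adjusted p = 0.373). It is not the only LXR gene, and no other is reported here. Srebf2, the activator of sterol synthesis and uptake genes, differed by 0.33 ± 0.39 (limma adjusted p = 0.53). Neither Nr1h3 nor Srebf2 was called, and both were named after their values were seen.

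**Figure D4:**
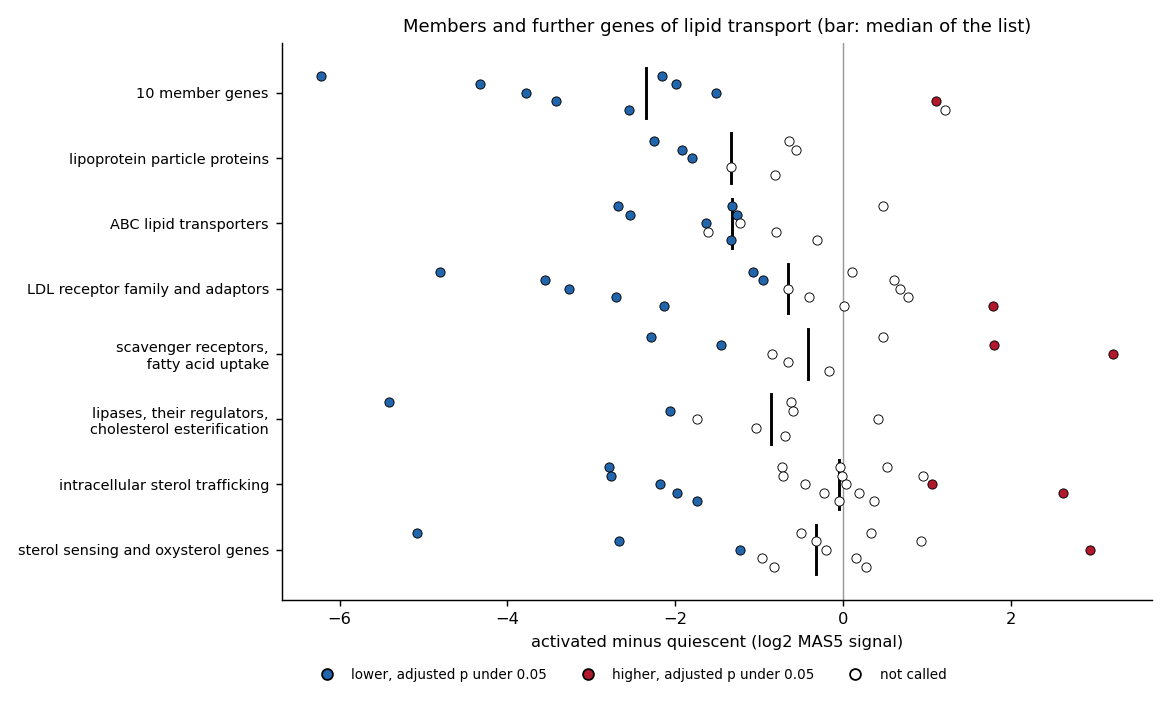
Difference between activated and quiescent arrays (horizontal axis, log2 MAS5 signal) for the 10 genes and the tested genes of the 7 lists, each point a gene and each vertical bar the median of its list. Blue and red points passed an adjusted p of 0.05. The medians run from -2.35 for the 10 genes to -0.05 for sterol trafficking.

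The genes with the most similar profiles were found by the root mean square distance between values centred on each gene's mean over the 6 arrays, among 11574 other genes. For Apoe the nearest were Atp1b2, a sodium pump subunit of astrocytes (distance 0.14), and Ppargc1a (0.15). For Abca1 they were Gli3 (0.05) and Pdpn (0.10), and for Clu Kcnk2 and Speg (0.22 each). Lcat was nearest to Smim3 (0.20) and Drp2 (0.22), Abcg1 to Prr5l (0.24) and Tmem117 (0.26), Lrp1 to Farp2 (0.10) and Adhfe1 (0.11), and Vldlr to Vat1 (0.16) and Ppp2r2c (0.18). Lrp8 was nearest to Triap1 (0.12) and Ubap2l (0.14), and Lpl to Ttc27 (0.15) and Zbtb25 (0.21), all 4 of which were not called. The nearest to Apod were Ermn, a gene of myelinating oligodendrocytes (0.78), and Lpar1 (0.96), at larger distances than for any other of the 10. Among the 10 themselves the closest were Abca1 and Lrp1 (0.33), Apoe and Lrp1 (0.35), Apoe and Abca1 (0.46), and Clu and Lcat (0.57). These distances describe 6 arrays and mostly reflect the difference between groups.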

How the data were processed

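RNA was extracted with the miRNeasy kit, amplified by the Nugen Pico method and biotinylated, per the labels' protocols. The authors deposited log2 signals from MAS5, per the submitters' processing notes; the program's version is not given in the sources used here. Each array has a linear trimmed mean of 500.0, so differences in total RNA per cell are scaled away, and dim MAS5 values are noisy. No further scaling or pseudocount was applied.

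After removal of 64 control probe sets, 34945 probe sets named a single gene, 932 named more and 9160 had no gene. Symbols were updated by Entrez identifier through RefSeq (GRCm38.p6, 99.4% found). The comparison used limma 3.58.1 in R 4.3.3 (lmFit, then eBayes with a variance trend). Adjustment was over all genes, or over all probe sets where these are reported singly. The scripts were checked on simulated data. Where an array of the dimmer group did not exceed its background, the fold is a bound: the brighter mean against, per array, the higher of signal and background. The labels do not say whether arrays with equal replicate numbers share a source. Their deviations from the group means correlated at -0.03 to 0.00, and those of arrays with different numbers at -0.03 to 0.03. These correlations cannot show whether samples were paired. The main fit used no block, and a fit with the replicate number as a block is given in the closing section.

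The 10 genes and all lists were chosen with earlier results of these data known. Named were the 10 genes, the sort genes, from each list the 2 largest called differences per direction whose brighter group reached the median and the brightest uncalled gene, and the 2 nearest profiles of each of the 10. Alternatives are given in the closing section. Figures were drawn with matplotlib 3.10.9.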

Additional observations from a re-analysis of the deposited data

How the results depend on the processing

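Each of the 10 genes was recomputed under other filters, scalings, pseudocounts (16 and 64), probe set rules, variance models, the replicate block and without each array. Of 188 such values 176 kept the side of the threshold and none turned direction. Apod was not tested from the mean of its probe sets, nor Lpl under the stricter filter, since both fell below the filter there. Apart from Lrp8, Lpl and Abca1 (at -0.88 scaled to the hybridisation controls), no gene of the 10 changed its call.

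With no filter, or without a variance trend, 0 of the 10 genes and 0 of their probe sets were called higher by limma, the Lrp8 adjusted p then being 0.0518 and 0.0772. After quantile normalization or with the mean of probe sets, Lpl was called and Lrp8 was not (adjusted p = 0.057 and 0.0596). Without each array in turn, 8 of the 10 were called lower every time and between 0 and 1 higher, for genes and for probe sets alike, and 16 to 17 probe sets lower. Over all genes, the higher count then ranged from 1315 (without activated array 2) to 2440 and that of the 7 lists from 3 to 8. Scaling to the hybridisation controls gave 3059 higher and 943 lower genes, and in the 7 lists 10 higher and 15 lower.

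With the replicate number as a block, 3934 genes, 9 of the 10, 18 of their probe sets and 30 genes of the 7 lists were called. Among the 10, the sort genes and the 7 lists it ended the calls of Osbpl2 (adjusted p = 0.0533), Apoa1 (0.0539), Abcc1 (0.0519) and Abcg4 (0.0634), and changed no other.

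Uncalled genes turned sign in a few cases: scaled to the hybridisation controls Abca3 (0.34), Fabp5 (0.47), Insig1 (0.32) and Pnpla2 (0.047), from the mean of probe sets Fabp5 (0.14) and Npc2 (-0.97), and Npc2 without quiescent array 2 (-0.19) or activated array 3 (-0.12), its range without each array being -0.19 to 0.17. The cause was not tested. Signal near background limits Lpl, Apod and the dim Vldlr probe sets.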

Other observations

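Genes that lie beside Apoe, Clu and Abca1 on the chromosome, by the order of protein-coding genes in RefSeq, were read after the main values were seen. Apoc1, next to Apoe and itself an apolipoprotein gene, was lower in activated cells (-1.92 ± 0.62, limma adjusted p = 0.0349), while Tomm40 on the other side of Apoe, a subunit of the mitochondrial import pore, was higher (1.14 ± 0.36, limma adjusted p = 0.0321). Scara3, next to Clu, was lower (-2.77 ± 0.34, limma adjusted p = 0.000236), and Gulo on the other side of Clu was not tested. Both neighbours of Abca1 were higher, Nipsnap3b by 2.26 ± 0.63 and Slc44a1, a choline transporter, by 1.06 ± 0.26 (limma adjusted p = 0.0181 and 0.0096). Beside Apod, Ppp1r2 was higher (0.78 ± 0.26, limma adjusted p = 0.0372) and Bdh1 was not called (-0.94 ± 0.49). Beside Lcat, Slc12a4 was lower (-1.78 ± 0.47, limma adjusted p = 0.0142) and Psmb10 was not called (-0.59 ± 0.53). Ints10 beside Lpl was not called (-0.76 ± 0.43), and Slc18a1 on the other side of Lpl was not tested. No direct neighbour of Abcg1, Lrp1, Lrp8 or Vldlr was tested.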
